A study of Sus scrofa with 9 samples.

Results

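Genes for platelet surface receptors and granule proteins were followed in the spleen of Ningxiang pigs, a Chinese indigenous breed, at 3 ages after birth. The set was defined by protein description: 10 names were looked for, the platelet glycoproteins Ib alpha (GP1BA), Ib beta (GP1BB), IX (GP9), V (GP5) and VI (GP6), integrin alpha-IIb (ITGA2B), TREM-like transcript 1 (TREML1), platelet factor 4 (PF4), platelet basic protein (PPBP) and von Willebrand factor (VWF). Of these, 8 were found among 28095 loci, each at 1 locus, and PF4 and PPBP were not analysed here. At 7 of the 8 loci the gene's own name was the only one, while the GP1BB locus also carried septin-5.

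Platelets are cell fragments shed by megakaryocytes, large cells that live mainly in the bone marrow and, in some mammals, also in the spleen. At a wound, VWF bridges exposed collagen and the GPIb-IX-V receptor complex, which is built from GP1BA, GP1BB, GP9 and GP5. GP6 then binds collagen and signals, integrin alpha-IIb with its partner beta-3 binds fibrinogen and joins platelets to each other, and TREML1 moves from the alpha granules to the surface. The spleen also stores circulating platelets, and endothelial cells make VWF as well, so the RNA of these genes in whole spleen can come from more than one kind of cell.

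Total RNA of whole spleen was sequenced from pigs of postnatal days 30, 90 and 210, with 3 libraries per age, to follow the spleen's transcriptome over development. All groups share the breed and the organ, and the labels name no treatment and no sex. They do not say whether the libraries came from separate animals, so the p-values cover the spread between libraries alone, which may be technical. The loci were assembled transcripts with a read count and a level in FPKM, fragments per kilobase of transcript scaled to library size, in each library.

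The libraries held 48930557 to 62119158 counted reads. The tissue label was checked against marker genes: the B cell gene MS4A1 averaged 6.45, 13.8 and 7.07 FPKM at days 30, 90 and 210, and CD3E of T cells 20.0, 21.0 and 32.7 FPKM. A sentence of the labelled protocol speaks of adipose tissue, but the fat cell gene ADIPOQ averaged 0.0243 FPKM at day 30 and was listed at 0 at the other ages. Of 2 other fat cell genes, FABP4 averaged 2.13, 0.266 and 0.273 FPKM at days 30, 90 and 210 and passed no test, and PLIN1 averaged 0.0974, 0.427 and 0.278 FPKM and rose at day 90 against day 30 (log2 change 2.25, edgeR over all loci, adjusted p = 0.0470). Their part in the results was not tested. In the same fit, the B cell markers MS4A1, CD79B and PAX5 rose at day 90 against day 30, and of 5 T cell markers 2 rose at day 210 against day 30. Of 4 tested neutrophil markers S100A12 and MPO fell at day 90 against day 30, CD163 was the 1 of 10 red pulp macrophage markers to rise at day 210 against day 30, and none of 3 mast cell and none of 5 proliferation markers passed in these 2 comparisons. APOA1, a liver gene, fell at day 90 against day 30, with averages of 18.4 and 45.6 FPKM.

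Platelet receptor RNA was lower in the older spleens. Among the 8 genes, TREML1, GP1BA, ITGA2B and VWF fell at day 90 against day 30, and these 4 together with GP5 and GP6 fell at day 210 against day 30. Of all 28095 loci, 2.21% and 2.23% fell in these comparisons. GP9 passed no test, and GP1BB passed at day 90 against day 30 in the fit of loci of at least 1 FPKM but not in that of all loci. The size of the difference at day 210 ran from 18.2-fold lower for TREML1 and 14.2-fold lower for GP1BA to 1.43-fold lower for GP1BB and 1.19-fold lower for GP9, as ratios of mean FPKM. In whole tissue, fewer platelets or megakaryocytes and less of the RNA in each cannot be told apart.

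**Figure D1:**
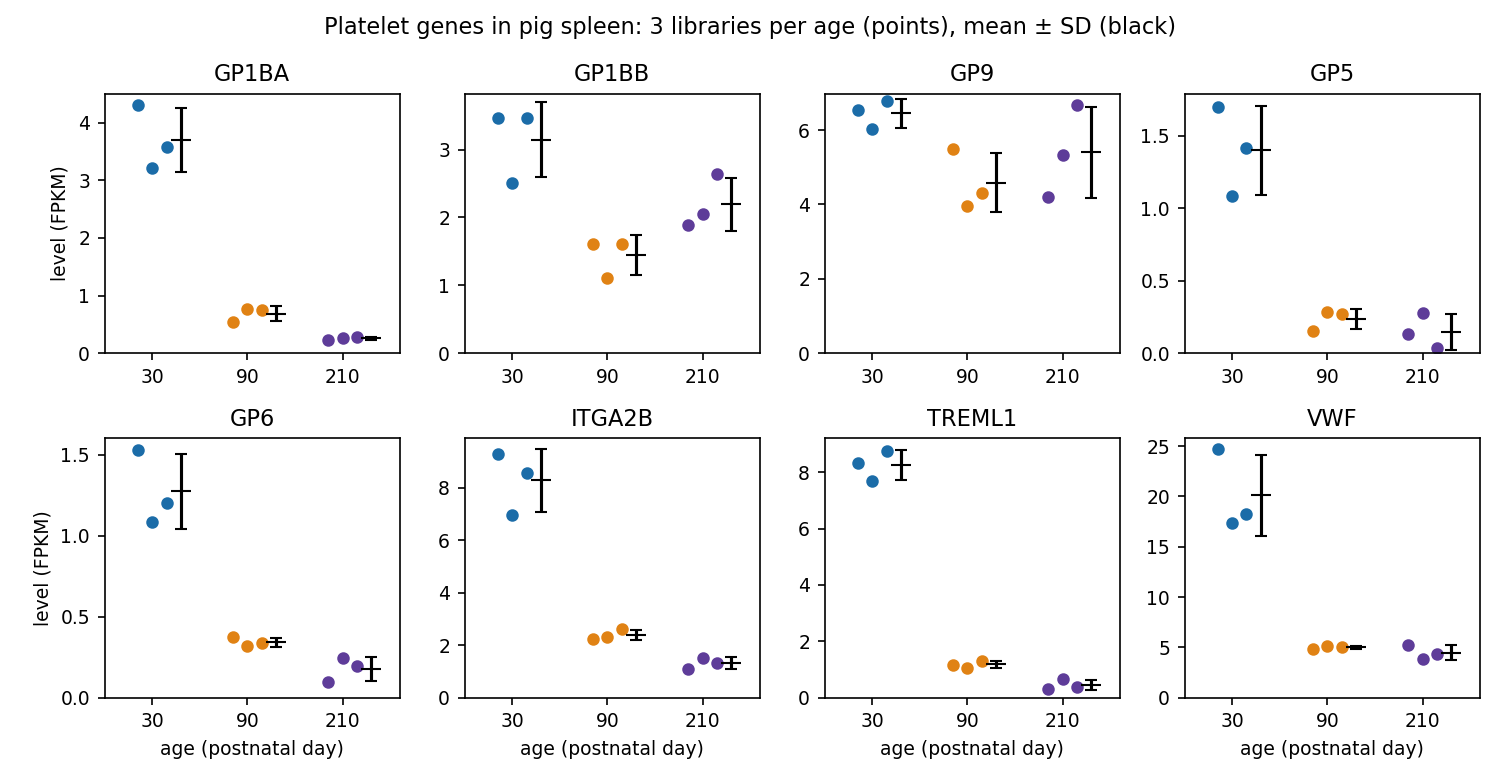
Levels in FPKM (vertical axes, each from 0) of the 8 platelet genes against age in postnatal days, with 1 point per library and the mean ± SD beside it in black (n = 3 per age). The day 90 libraries lie under the day 30 libraries in all 8 panels. The GP9 locus and the GP1BB locus, which includes septin-5, keep averages of 5.40 and 2.19 FPKM at day 210, where TREML1 and GP1BA average 0.454 and 0.260 FPKM.

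GP1BA carries the VWF-binding site of the GPIb-IX-V complex. Its locus lay at chr12:15031896-15033800 on the plus strand; the submitters' processing notes name a mouse genome build, which cannot be the build of these pig coordinates, so positions are given as deposited. GP1BA had 4.30, 3.21 and 3.58 FPKM at day 30, 0.536, 0.774 and 0.752 FPKM at day 90, and 0.227, 0.268 and 0.285 FPKM at day 210. The 3 ages did not overlap at any step. In edgeR's quasi-likelihood fit of all loci, the log2 change at day 90 against day 30 was -2.17 ± 0.28 (SE, adjusted p = 0.01045). At day 210 against day 30 it was -3.75 ± 0.30 (adjusted p = 0.00151). The change at day 210 against day 90 was -1.58 ± 0.28 with an adjusted p of 0.0720, above the threshold of 0.05.

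GP1BB is linked to GP1BA by a disulphide bond and is needed for the complex to reach the surface. Its locus at chr14:13521460-13530455 merged the gene models of septin-5 and GP1BB, so its reads are of both and its level cannot be assigned to GP1BB alone. The locus had 3.46, 2.51 and 3.46 FPKM at day 30, 1.61, 1.10 and 1.62 FPKM at day 90, and 1.89, 2.04 and 2.64 FPKM at day 210. Day 90 was thus the lowest age in every library, day 210 lay above it in every library, and days 210 and 30 overlapped. In edgeR's fit of the loci averaging 1 FPKM or more, the log2 change at day 90 against day 30 was -0.91 ± 0.22 (SE, adjusted p = 0.0428). This call ended when all loci were tested (adjusted p = 0.0614), under edgeR's own filter on low counts (0.0555) and when any 1 of 6 libraries was left out (day 30 replicates 1, 2 and 3, day 90 replicates 1 and 2, day 210 replicate 2; adjusted p up to 0.147). In the fit of loci averaging 1 FPKM or more, 4.02% fell at day 90 against day 30 and 3.7% fell at day 210 against day 30. At day 210 against day 90, 0.535% passed. At day 210 the log2 change of GP1BB was 0.46 ± 0.22 against day 90 (adjusted p = 0.395) and -0.45 ± 0.22 against day 30 (adjusted p = 0.241).

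GP9, a small subunit of the same complex, stood at chr13:49297824-49305289. It passed no test of age, with 6.53, 6.03 and 6.78 FPKM at day 30, 5.48, 3.97 and 4.32 FPKM at day 90, and 4.21, 5.32 and 6.66 FPKM at day 210. The day 90 libraries lay under those of day 30, and day 210 overlapped with both. The log2 changes were -0.30 ± 0.18 at day 90 against day 30 (SE, edgeR, adjusted p = 0.380), 0.10 ± 0.18 at day 210 against day 90 (adjusted p = 0.853) and -0.19 ± 0.18 at day 210 against day 30 (adjusted p = 0.574). Without day 210 replicate 3 the change at day 210 against day 90 was -0.13. The transcript length that its reads and FPKM imply, scaled to GP1BA, was 6.58 kb of a locus of 7.47 kb, and its last base was shared with the RAB43 locus of the opposite strand. The labels do not say whether reads were counted by strand, and how many reads come from GP9 transcripts proper was not tested.

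GP5 is the subunit that thrombin cleaves from the platelet surface, and its locus at chr13:109102196-109103905 was measured with few reads. It had 222, 141 and 176 reads at day 30, 21, 40 and 37 reads at day 90, and 18, 32 and 4 reads at day 210. On the FPKM scale it averaged 1.40 ± 0.308, 0.236 ± 0.0699 and 0.147 ± 0.122 at days 30, 90 and 210 (SD, n = 3 each). Every later library was below every day 30 library, and days 210 and 90 overlapped. Its mean over all libraries was under 1 FPKM, so it was tested in the edgeR fit of all 28095 loci, where it fell at day 210 against day 30 with a log2 change of -3.17 ± 0.63 (SE, adjusted p = 0.0299). This call ended when only the 2 ages compared were fitted (adjusted p = 0.0630), and without any 1 of day 30 replicates 1, 2 and 3 or day 210 replicate 1 (adjusted p up to 0.0880). At day 90 against day 30 the change was -2.28 ± 0.60 with an adjusted p of 0.0740, and of 0.0327 with only these 2 ages and 0.0469 and 0.0304 without day 210 replicate 2 or 3. With each library left out in turn, GP5 passed in this comparison in 2 of 9 edgeR fits. The adjusted p was 0.225 at most, without day 90 replicate 1.

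GP6, the collagen receptor that signals through the Fc receptor gamma chain, lay at chr6:112613931-112635911. Its levels were 1.53, 1.09 and 1.20 FPKM at day 30, 0.375, 0.321 and 0.336 FPKM at day 90, and 0.1002, 0.244 and 0.196 FPKM at day 210. The 3 ages did not overlap, though the day 210 values rested on 9, 18 and 14 reads. GP6 fell at day 210 against day 30 with a log2 change of -2.72 ± 0.40 (SE, edgeR over all loci, adjusted p = 0.0119). At day 90 against day 30 the change was -1.66 ± 0.38 with an adjusted p of 0.0502, which became 0.0354 and 0.0496 without day 210 replicate 1 or 2. With each library left out in turn, GP6 passed there in 2 of 9 edgeR fits. The adjusted p was 0.171 at most, without day 90 replicate 1. Its change at day 210 against day 90 was -1.06 ± 0.39 (adjusted p = 0.337).

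ITGA2B, the alpha chain of the fibrinogen receptor and the classical marker of the megakaryocyte line, lay at chr12:47366147-47380369. It had 9.30, 6.96 and 8.58 FPKM at day 30, 2.25, 2.30 and 2.61 FPKM at day 90, and 1.10, 1.53 and 1.34 FPKM at day 210, again with no overlap between ages. The log2 changes were -1.57 ± 0.20 at day 90 against day 30 (SE, edgeR, adjusted p = 0.00782) and -2.58 ± 0.21 at day 210 against day 30 (adjusted p = 0.00124). The further change at day 210 against day 90 was -1.02 ± 0.20, with an adjusted p of 0.0698.

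TREML1 had the steepest course of the 8. Its locus lay at chr7:115304372-115309178, and its levels were 8.33, 7.69 and 8.73 FPKM at day 30, 1.16, 1.07 and 1.31 FPKM at day 90, and 0.307, 0.655 and 0.398 FPKM at day 210. At day 30 it was as abundant per length as ITGA2B, with averages of 8.25 and 8.28 FPKM whose libraries overlapped, and at day 210 it was under ITGA2B in every library. The log2 changes were -2.56 ± 0.29 at day 90 against day 30 (SE, edgeR over all loci, adjusted p = 0.00794) and -4.11 ± 0.31 at day 210 against day 30 (adjusted p = 0.00151). Its change of -1.54 ± 0.29 at day 210 against day 90 had an adjusted p of 0.0839, and of 0.0603 at the lowest with 1 library left out.

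VWF, the ligand of GP1BA, had the highest mean FPKM of the 8 at days 30 and 90, though at day 90 its range overlapped that of the GP9 locus. Its locus spanned chr5:62309858-62932534, joined 3 gene models, and overlapped 2 other loci, 1 of them on the opposite strand, which averaged 0.438 and 0.0814 FPKM. The transcript length that the reads and FPKM of the VWF locus imply, scaled to GP1BA, was 13.4 kb of a locus of 622.7 kb. How many of these reads come from VWF transcripts proper was not tested. VWF had 24.7, 17.4 and 18.2 FPKM at day 30, 4.84, 5.12 and 5.08 FPKM at day 90, and 5.24, 3.81 and 4.40 FPKM at day 210. All later libraries lay under the day 30 libraries, and days 210 and 90 overlapped. The log2 change was -1.79 ± 0.19 at day 90 against day 30 (SE, edgeR, adjusted p = 0.00586) and -2.12 ± 0.19 at day 210 against day 30 (adjusted p = 0.00234), while at day 210 against day 90 it was -0.34 ± 0.19 (adjusted p = 0.468).

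**Figure D2:**
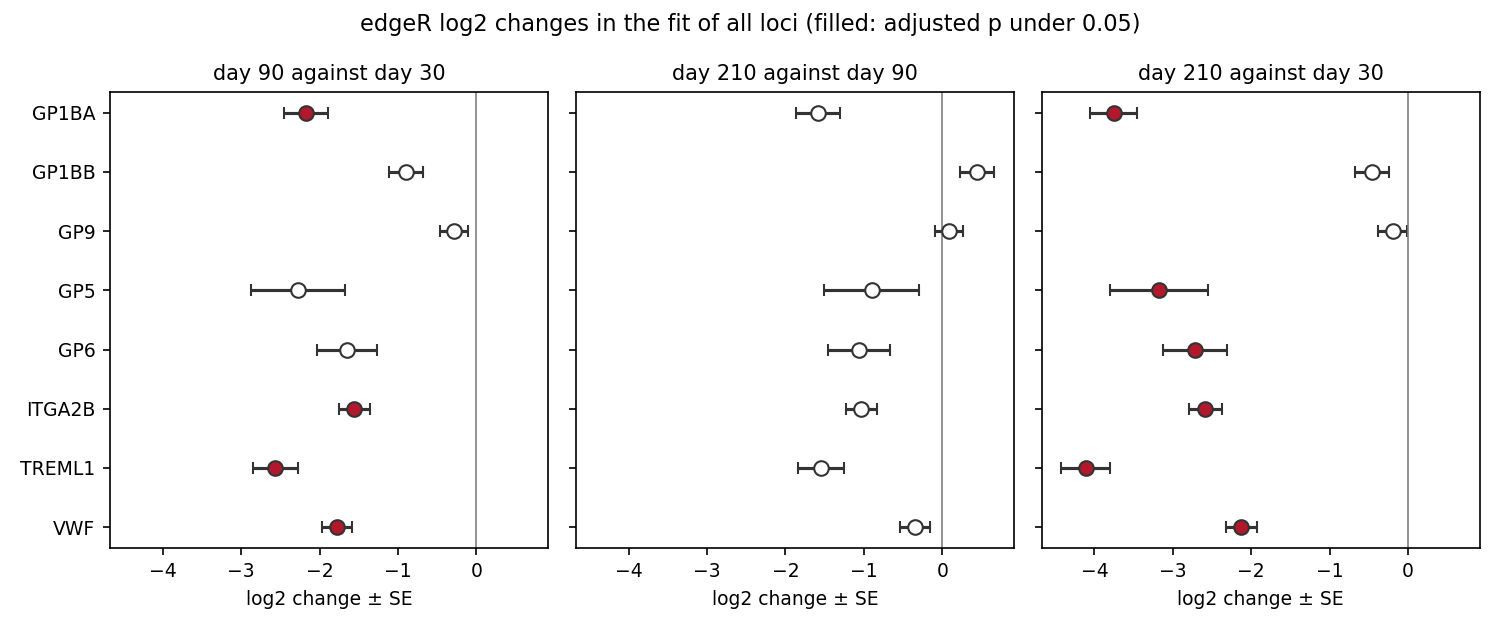
edgeR log2 changes (horizontal axes, bars ± SE) of the 8 genes in the 3 comparisons of ages, from the fit of all 28095 loci; filled points have an adjusted p under 0.05. There are 4 filled points at day 90 against day 30, 0 at day 210 against day 90 and 6 at day 210 against day 30, and GP1BB and GP9 lie nearest to 0 at day 210 against day 30.

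The 3 comparisons share libraries and are therefore not independent of each other. Over all loci tested with edgeR, 4 of the 8 genes passed at day 90 against day 30, all lower, where 3.4% of the 28095 loci passed and 2.21% fell. None passed at day 210 against day 90, where 0.235% of loci did, although 4 had an unadjusted p under 0.05 and DESeq2 called 3, GP1BA, ITGA2B and TREML1. At day 210 against day 30, 6 of the 8 passed, all lower, against 3.64% of all loci that passed and 2.23% that fell, and 6 differed between the ages in any way against 4.45% of all loci. The median log2 change of the 8 was -1.72, -0.96 and -2.65 in the 3 comparisons in that order, and that of all loci was -0.01, 0 and -0.00. By levels alone, every day 90 library lay below every day 30 library at 8 of the 8 genes, which held for 21.7% of all loci. The later age lay wholly below the earlier at 4 of 8 genes for day 210 against day 90 (3.06% of all loci) and at 6 of 8 for day 210 against day 30 (14.1%).

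At day 90 against day 30, DESeq2 and limma on log2 FPKM each called 7 of the 8. The call counts moved less at day 210 against day 30, with 5 or 6 of the 8 under every alternative run. Under each edgeR and limma alternative over all loci, 0 of the 8 passed at day 210 against day 90, including every one with a library left out.

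The order of the levels of the loci also changed with age. The GP1BB locus includes septin-5, and the share of GP9 transcripts in the GP9 locus was not tested. At day 30 the order was VWF, ITGA2B, TREML1, GP9, GP1BA, GP1BB, GP5 and GP6, and neighbours overlapped for ITGA2B and TREML1, GP1BA and GP1BB, and GP5 and GP6. At day 90 it was VWF, GP9, ITGA2B, GP1BB, TREML1, GP1BA, GP6 and GP5, and ranges overlapped for VWF and GP9 and for GP1BB and TREML1. At day 210 GP9 came first with 5.40 ± 1.23 FPKM and VWF followed with 4.48 ± 0.722 FPKM (SD, n = 3), within each other's range, before GP1BB, ITGA2B, TREML1, GP1BA, GP6 and GP5. At the low end of that list ranges overlapped for GP1BA and GP6 and for GP6 and GP5, while TREML1 lay above GP1BA in every library.

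Members were next set against ITGA2B within each library, as the log2 ratio of reads, which needs no scaling between libraries. ITGA2B was taken as the base after the levels had been seen. Exact permutation tests over the 1680 assignments of the 9 libraries to ages, two-sided for a difference between ages, were run on 7 ratios, with a smallest possible p of 0.00357. The ratios of TREML1, GP1BA, GP1BB and GP9 differed between ages (exact permutation test, adjusted p = 0.00625 each).

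TREML1 and GP1BA fell further than ITGA2B. TREML1 per ITGA2B read was -1.68 ± 0.151, -2.68 ± 0.0760 and -3.24 ± 0.319 (log2, SD, n = 3) at days 30, 90 and 210, and GP1BA per ITGA2B read was -1.81 ± 0.0857, -2.45 ± 0.243 and -2.96 ± 0.157. The loci of GP1BB and GP9 moved the other way relative to ITGA2B: the log2 ratio of GP9 was 0.79, 2.07 and 3.15, and that of GP1BB -1.01, -0.35 and 1.12. At day 210 against day 30 the ratio to ITGA2B differed by -1.14 for GP1BA (95% interval -1.49 to -0.80) and by 2.36 for the GP9 locus (1.86 to 2.86). The reads of the GP1BB locus include septin-5, and the share of GP9 transcripts in the GP9 locus was not tested.

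GP6 had log2 ratios to ITGA2B of -4.18 ± 0.113, -4.24 ± 0.177 and -4.33 ± 0.371 (SD, n = 3), with an adjusted p of 0.821 in the exact permutation test. The 95% interval of its difference at day 210 against day 30 ran from -0.65 to 0.34, so a moderate change in either direction is within the error. GP5 gave an adjusted p of 0.479 and an interval from -2.63 to 0.78, too wide to compare it with ITGA2B. VWF had log2 ratios of 3.44, 3.24 and 3.92 and an adjusted p of 0.0800, which became 0.0150 without day 210 replicate 2 in the exact test.

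**Figure D3:**
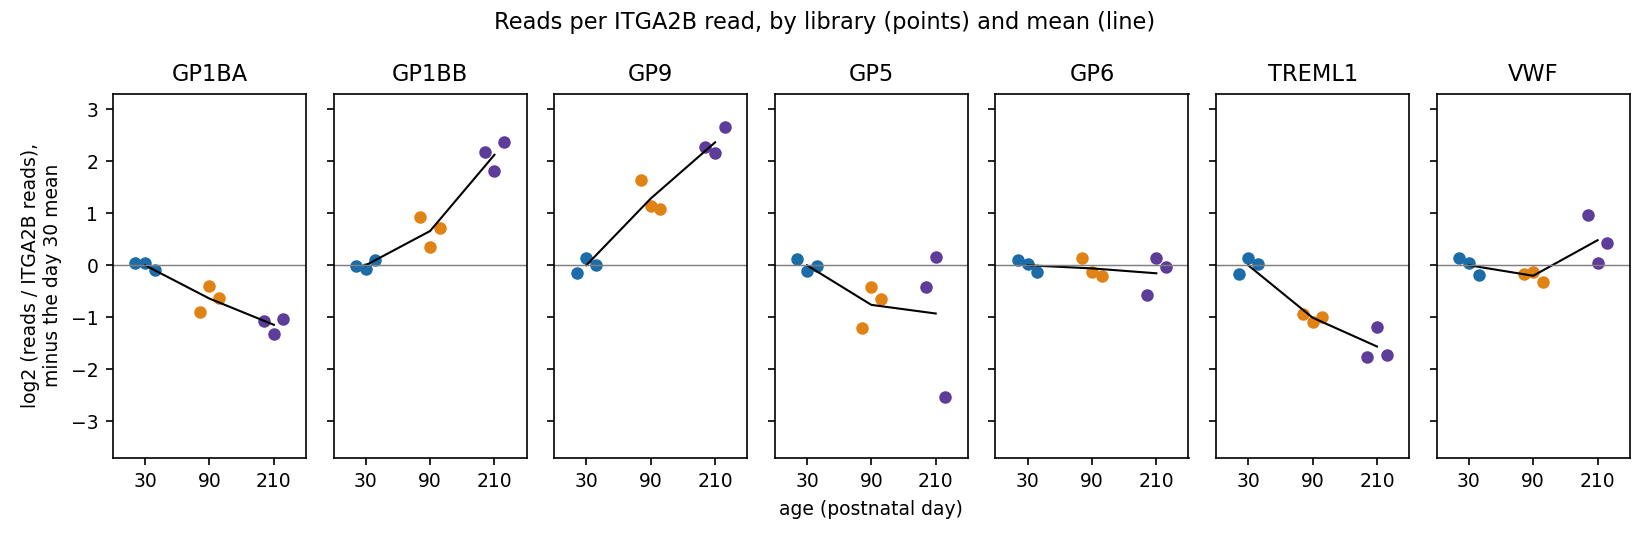
Log2 of the reads of each gene per ITGA2B read (vertical axis, the day 30 mean set to 0) against age in postnatal days, with 1 point per library and a line through the means (n = 3 per age). TREML1 and GP1BA run down, GP1BB and GP9 run up, and GP6 stays within its spread.

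Across the 9 libraries, GP1BA, ITGA2B, TREML1 and GP6 followed nearly 1 profile. Pearson's r of log2 CPM (counts scaled to library size) was 0.995 for GP1BA with ITGA2B, 0.993 for ITGA2B with TREML1 and 0.988 for GP6 with ITGA2B (n = 9 libraries that share the age effect and depth). With these 4 genes VWF had r from 0.910 to 0.953, and GP5 from 0.893 to 0.926. GP9 had r from 0.240 to 0.778 with the other 7, the highest of them with GP1BB. After each library's age mean was taken off, r between these 4 genes was from 0.522 for GP1BA with TREML1 and 0.568 for GP1BA with GP6 to 0.849 for GP6 with TREML1 and 0.869 for GP1BA with ITGA2B. Over these deviations VWF had an r of -0.12 with TREML1 and 0.68 with GP1BA. These are descriptions over few libraries.

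**Figure D4:**
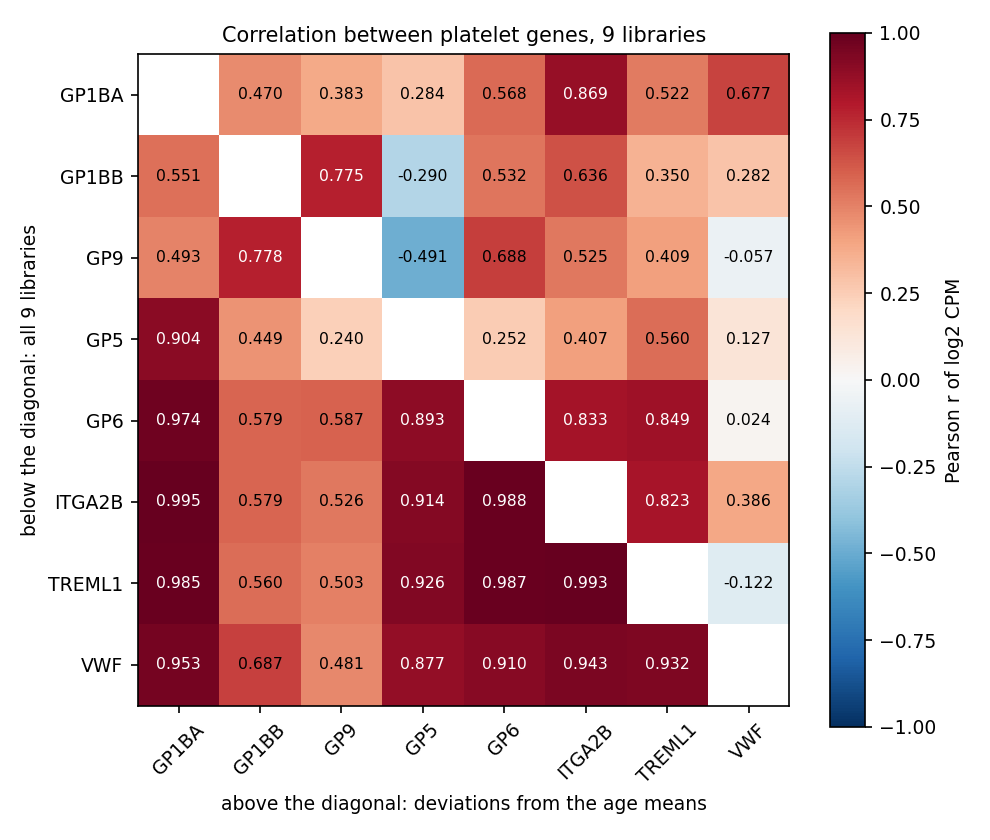
Pearson's r of log2 CPM between pairs of the 8 genes, over all 9 libraries below the diagonal and over deviations from the age means above it; colour runs from -1 (blue) to 1 (red). Below the diagonal, the cells that pair GP1BB or GP9 with the other genes are paler, and r between GP1BB and GP9 is 0.778.

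The other genes of platelet biology were taken from lists of surface receptors, granule cargo, signalling and cytoskeleton, and megakaryocyte regulators, matched by description and tested in the edgeR fit of all loci. In that fit 2.21% of loci fell and 1.19% rose at day 90 against day 30, and 2.23% fell and 1.41% rose at day 210 against day 30. At day 210 against day 90, where 0.235% of loci passed, no gene of these 4 lists did, with medians of log2 change between -0.13 and 0.09.

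Of 15 tested other surface receptors, 3 fell at day 90 against day 30 and 4 fell at day 210 against day 30, and none rose, with medians of log2 change of -0.66 and -0.88. ITGB3, the partner chain of ITGA2B, averaged 12.1 ± 3.78, 3.32 ± 0.936 and 2.32 ± 0.639 FPKM at days 30, 90 and 210 (SD, n = 3 each). Its log2 changes were -1.67 at day 90 against day 30 (edgeR, adjusted p = 0.0164) and -2.33 at day 210 against day 30 (adjusted p = 0.00553), close to those of ITGA2B in value. CLEC1B, the receptor for podoplanin, averaged 5.70, 0.724 and 0.307 FPKM and had log2 changes of -2.73 (adjusted p = 0.0122) and -4.09 (adjusted p = 0.00397) in the same comparisons. PEAR1, a receptor for platelet contact signals, fell at day 90 against day 30 with a log2 change of -0.83 (adjusted p = 0.0204), and the tetraspanin CD9 fell at day 210 against day 30 with one of -0.95 (adjusted p = 0.0291). The thrombin receptor F2RL3 averaged 0.728 and 0.148 FPKM at days 30 and 90 and was listed at 0 in the day 210 libraries, and it passed at day 210 against day 30 (adjusted p = 0.0435), where no fold is given against 0.

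Of the thrombopoietin axis, which drives megakaryocyte growth, the kinase JAK2, the transcription factors STAT5A and STAT5B and the adaptor SH2B3 were tested in the same fit. None of these 4 passed in any comparison of ages.

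Of 21 tested granule genes, 3 fell at day 90 against day 30 and 3 at day 210 against day 30, and none rose, with medians of log2 change of -0.47 and -0.27. F13A1, the A chain of clotting factor XIII, fell by 1.17 and 1.66 on the log2 scale in these comparisons (edgeR, adjusted p = 0.0248 and 0.00920). SPARC, a matrix protein that platelets store and many other cells secrete, fell by 1.01 and 1.18 (adjusted p = 0.0473 and 0.0292). Clotting factor F5 fell at day 210 against day 30 by 1.44 on the log2 scale (adjusted p = 0.0105), and the vessel growth factor ANGPT1 fell at day 90 against day 30 by 1.49 (adjusted p = 0.0217). NBEAL2, VPS33B and VIPAS39, which build alpha granules, had log2 changes from -0.14 to 0.01 in these 2 comparisons, and NBEAL2 shares its locus with another gene name.

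Of 19 tested signalling and cytoskeleton genes, most of which other blood cells use too, 2 fell in each of these comparisons. TUBB1, the tubulin of platelets and megakaryocytes, averaged 10.1 ± 1.39, 3.74 ± 0.696 and 3.20 ± 0.264 FPKM at days 30, 90 and 210 (SD, n = 3 each), with log2 changes of -1.20 (edgeR, adjusted p = 0.0278) and -1.61 (adjusted p = 0.0112). PDE5A, a cGMP phosphodiesterase, fell by 1.01 and 0.90 on the log2 scale (adjusted p = 0.0183 and 0.0238). PIK3CG, a kinase of many white cells, rose at day 210 against day 30 with a log2 change of 0.58 (adjusted p = 0.0431), and was the 1 gene of the list to rise. Medians of log2 change were -0.17 and -0.20.

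Of 9 tested megakaryocyte regulators, GATA1, NFE2 and TAL1 fell in both comparisons with day 30, and none rose. TAL1 averaged 5.45 ± 1.77, 0.601 ± 0.0805 and 0.832 ± 0.152 FPKM at days 30, 90 and 210 (SD, n = 3 each), with a log2 change of -2.93 at day 90 against day 30 (edgeR, adjusted p = 0.00684). NFE2 had -2.59 (adjusted p = 0.0156) and GATA1 -1.50 (adjusted p = 0.0355) in that comparison. FLI1 and RUNX1, which act in many blood and vessel cells, had log2 changes of 0.16 and 0.03 there (adjusted p = 0.546 and 0.964). The medians of log2 change of the 9 were -0.56 at day 90 against day 30 and 0.06 at day 210 against day 30, the second above 0 while the 3 genes that passed were lower.

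GATA1, NFE2 and TAL1 also act in red cell precursors, whose markers moved in the same direction. Of 12 tested erythroid markers 8 fell at day 90 against day 30 and 10 at day 210 against day 30, with medians of log2 change of -3.78 and -4.15, and none was at 0 throughout an age. Their summed level, mostly haemoglobin, was 2558 to 5042 FPKM at day 30, 955 to 1934 FPKM at day 90 and 313 to 1264 FPKM at day 210. Their part in the changes of the regulators was not tested.

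Endothelial markers also moved, beside VWF. Of 13 tested markers 6 fell at day 90 against day 30, none passed at day 210 against day 90, and 6 fell at day 210 against day 30. Medians of log2 change were -0.97, 0.14 and -0.81, against -1.78, -0.35 and -2.13 for VWF in the same fit. CLEC14A, an endothelial surface lectin, averaged 12.7 ± 0.614, 4.87 ± 0.576 and 5.82 ± 1.13 FPKM at days 30, 90 and 210 (SD, n = 3 each), and fell by 1.17 and 1.09 on the log2 scale in the comparisons with day 30 (edgeR, adjusted p = 0.0104 and 0.00950). The summed level of the 13 markers was 292 to 335 FPKM at day 30, 170 to 208 FPKM at day 90 and 185 to 268 FPKM at day 210, and their part in the VWF change was not tested. None of 6 genes that handle VWF passed in any comparison, STXBP5, STX2 and LRP1 among them. Of these 6, ASGR1 and ASGR2 averaged 0.0143 and 0.00856 FPKM at day 30 and were listed at 0 later, too low to show a change. The VWF-cleaving protease ADAMTS13 was also low, with averages of 0.266, 0.445 and 0.358 FPKM at days 30, 90 and 210.

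**Figure D5:**
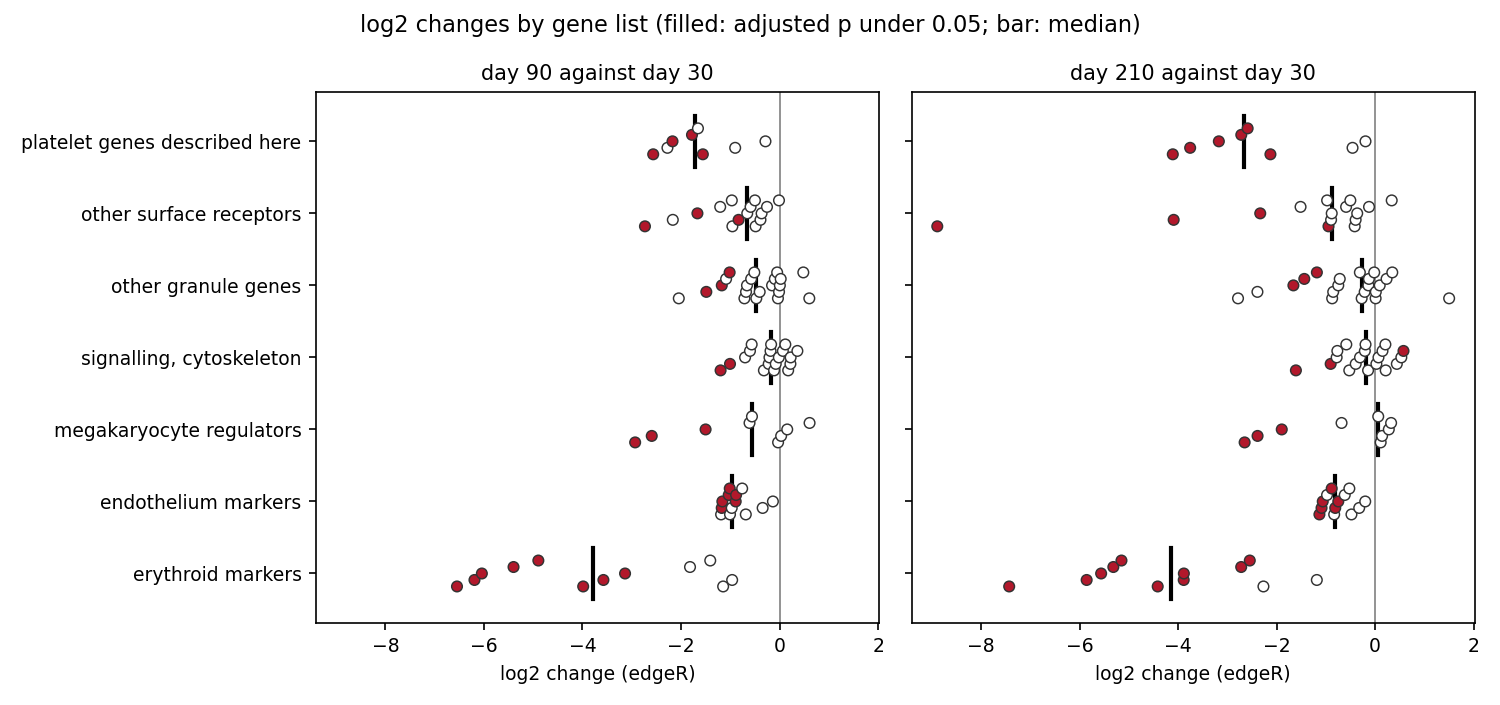
edgeR log2 changes (horizontal axes) of each tested gene by list, at day 90 against day 30 on the left and at day 210 against day 30 on the right; filled points have an adjusted p under 0.05 and black bars are medians. The 8 platelet genes, have medians of -1.72 and -2.65, and the erythroid markers, with medians of -3.78 and -4.15, lie furthest to the left of the other lists. All values are from the fit of all loci, and the receptor point furthest left on the right is F2RL3, listed at 0 at day 210, whose place is set by the fit and is no measure of size.

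The loci most like the 8 genes were found by the correlation of their log2 CPM with the mean standardised profile of the 8, over 9 libraries and 9982 loci that have an informative name. In order of r they were lymphocyte antigen 6 complex locus protein G6f (r = 0.980), tubulin beta-1 chain (0.979), SH3 domain-binding protein 4 (0.979), claudin-5 (0.977), adenylate cyclase type 6 (0.973), disintegrin and metalloproteinase domain-containing protein 11 (0.972), a protein like multidrug resistance-associated protein 4 (0.969) and ankyrin-1 (0.968). In all, 24 loci had r over 0.95. The 8 genes themselves had r with this profile, to which each contributes, from 0.649 for GP9 to 0.977 for ITGA2B.

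The G6f locus averaged 3.23 ± 0.726, 0.4996 ± 0.0888 and 0.274 ± 0.188 FPKM at days 30, 90 and 210 (SD, n = 3 each). The multidrug resistance-associated protein 4-like locus averaged 6.45, 0.211 and 0.0431 FPKM, and ankyrin-1, also on the erythroid list, 7.25, 0.143 and 0.1199 FPKM. Claudin-5 kept more of its level, with 9.85, 4.62 and 4.69 FPKM. The correlation weighs the shape of the course over the libraries and not its size, so loci with small and large changes stand side by side.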

How the data were processed

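Poly(A) selection and a non-poly(A) fraction are both mentioned in the labels' protocols. Reads were aligned with HISAT2 2.0 and assembled with StringTie 1.3.0, per the submitters' processing notes, which also list Bowtie 0.12.2. The genome build of the coordinates is not given in the sources used here. The authors deposited whole-number read counts and FPKM (fragments per kilobase of transcript, scaled to library size) per locus and library, and, for circRNAs, junction read counts with a normalised signal (SRPBM, spliced reads scaled to mapped reads).

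The counts were tested with edgeR 4.0.16 (R 4.3.3, TMM factors 0.937 to 1.07, quasi-likelihood F tests on all 9 libraries with age as the factor, Benjamini-Hochberg adjustment, threshold 0.05) over the 19264 loci averaging 1 FPKM or more. GP5 and GP6, under that minimum, were tested in the same fit over all 28095 loci. So were GP1BA and TREML1, which averaged under 1 FPKM at day 210. All values and counts of the gene lists, and counts of the 8 genes past the threshold, also come from it. The lists, GP1BA and TREML1 were moved to it after the data were seen. Of the 8 genes 6 passed the minimum, some through day 30 alone, so counts of the 8 genes past the threshold are not drawn from it. Counts of alternative values that kept or changed a call or a direction do use it for those 6. The common biological coefficient of variation was 27.3%. Exact permutation tests of read ratios (0.5 added to each count) used scipy 1.17.1. Alternatives were DESeq2 1.42.0, its size factors, limma 3.58.1 on log2(FPKM + 1) and log2(FPKM + 0.1), other filters, only the 2 ages compared, a block for the replicate number, and leaving out each library. The fits were checked on simulated counts.

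Names came from descriptions, with the locus of highest mean FPKM taken per name. Text names all members, up to 4 genes per list with the smallest p of any age difference, and the 8 most similar loci. Other genes were named after their values were seen. For 2 genes of the lists the results are not reported here. The members and lists were chosen with earlier results of these data known. Sequences were not analysed here.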

Additional observations from a re-analysis of the deposited data

How the results depend on the processing

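The directions of the 8 genes' changes held in all of 402 alternative values but 1, GP9 at day 210 against day 90 without day 210 replicate 3 (-0.13, and 0.29 at most without day 210 replicate 1). Of these values 18 gained and 14 lost a call. For GP5 and GP6 they were set against the fit of all loci, and for the other genes against that of loci of at least 1 FPKM. Over all loci, the number of the 8 genes past the threshold at day 90 against day 30 was 4, and 7 with DESeq2 and with limma on log2(FPKM + 1) and log2(FPKM + 0.1). At day 210 against day 90 it was 0, and 3 with DESeq2. With each library left out it ran from 4 to 6 at day 90 against day 30, was 0 at day 210 against day 90, and ran from 5 to 6 at day 210 against day 30 and from 4 to 6 for any difference. Of all loci of at least 1 FPKM, edgeR called 1171 at day 90 against day 30, 103 at day 210 against day 90, 1203 at day 210 against day 30 and 1471 for any difference. DESeq2 called 2424, 801, 2300 and 3324 in that order. With each library left out the counts ran from 280 to 1556, from 7 to 139, from 342 to 1053 and from 493 to 1671. At day 90 against day 30, day 30 replicates 1 and 2 and each day 90 replicate moved the count by over 1.5 times, and at day 210 against day 90 so did every day 90 replicate, day 30 replicate 2 and day 210 replicates 1 and 2. At day 210 against day 30 it was day 30 replicates 1 and 2, day 90 replicate 2 and day 210 replicate 2, and for any difference all of these and day 90 replicates 1 and 3. Without a filter 66 loci passed at day 210 against day 90, with only the 2 ages 499 passed at day 210 against day 30, and with limma on log2(FPKM + 0.1) 770 did. Limma on log2(FPKM + 1) shifted the median of all loci by -0.15 at day 90 against day 30 and 0.11 at day 210 against day 90, and split its 1720 calls at day 90 against day 30 into 127 that rose and 1593 that fell, where edgeR had 396 and 775. The replicate numbers did not pair the libraries (r from -0.07 to 0.10 between same-numbered libraries). With the replicate block 582, 43, 531 and 651 loci passed, and the block ended the call of GP5 at day 210 against day 30 (adjusted p = 0.0595), as did fitting only the 2 ages (0.0630), and those of GP5 and GP6 for any difference (0.0694 and 0.0505). With each library left out, GP5 kept its call for any difference in 2 of 9 edgeR fits (adjusted p up to 0.105). GP6 kept that call in 7 of 9 (adjusted p up to 0.0617). The causes were not tested. The depth limits GP5 and GP6 most, with as few as 4 and 9 reads in a library.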

Other observations

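The circRNA table held 0 circRNAs that overlap any of the 8 loci, out of 10962 to 15469 back-splice junction reads in a library. Of the platelet genes outside the 8, the dense granule gene SLC35D3 averaged 0.775, 0.150 and 0.103 FPKM at days 30, 90 and 210, and passed no test in edgeR's fit of all loci (adjusted p from 0.171 to 0.819 in the comparisons of ages).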
